A study of Mus musculus with 12 samples.

Results

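WNT proteins are secreted, lipid-modified ligands that bind Frizzled receptors. With LRP5 or LRP6 as a second receptor they stabilize beta-catenin, and with ROR1, ROR2, RYK or PTK7 some of them act without it. In bone, WNT10B is known as a ligand that favors osteoblasts over adipocytes, and WNT5A as a ligand that mostly acts without beta-catenin. The 10 genes described here are the WNT ligands *Wnt2b*, *Wnt4*, *Wnt5a*, *Wnt5b*, *Wnt6*, *Wnt7a*, *Wnt7b*, *Wnt10a*, *Wnt10b* and *Wnt11*. They were picked by name, by matching the identifiers of the count matrix to gene symbols, and are 10 of the 56980 genes of the matrix and 10 of the 19 WNT ligand genes in the annotation.

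Bulk RNA-Seq of W-20 cells, a murine bone marrow stromal cell line, gave 12 libraries, 3 in each of 4 groups, with totals of 17127897 to 19057319 counts. The cells were either unmodified (WT) or a stable line titled Y428F, and each was exposed to 50 nM parathyroid hormone (PTH) or to vehicle (PBS) for 2 hours. Y428F is YAP, the transcriptional coactivator of the Hippo pathway, with phenylalanine in place of the tyrosine that the study names as a target of the kinase Src. By the study's methods, the mutant lines were made from plasmids for Flag-tagged YAP that are named for a CMV promoter. A YAP entry vector and a lentiviral destination vector named for a PGK promoter are also listed, so the promoter in this line is not settled. Positive clones were selected with puromycin, and removal of the cells' own *Yap1* is not described. The study's text introduces the RNA-Seq with cells that carry Y428F together with a serine-to-alanine change, known to keep YAP from being degraded, and also speaks of the Y428F mutation alone, while the titles give only Y428F. The genotype label of the Y428F libraries reads WT, so these groups rest on the titles. The Y428F libraries held less *Yap1* RNA than the WT libraries, at 141 to 150 against 181 to 194 CPM (counts divided by library size, with TMM factors) with vehicle and 169 to 174 against 230 to 246 CPM with PTH (log2 fold changes -0.37 and -0.49, adjusted p = 7.7e-06 and 1.35e-07 in edgeR), so no excess of *Yap1* RNA was seen in the libraries titled Y428F. Whether transcripts of the plasmid are among these counts is not given in the sources used here. No library of a line with introduced WT YAP was analysed here, so the mutation cannot be told apart from selection, from added YAP or from other differences between the lines. The labels do not say whether the 3 libraries of a group came from separate cultures, and the study's general statement on independent experiments is not tied to the libraries, so p-values may measure only technical spread between these samples.

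The labelled cell type was checked first. Of 15 stromal and osteoblast markers, *Col1a2*, a fibrillar collagen chain, was the most abundant, at 12830 CPM in WT cells and 7745 CPM in Y428F cells with vehicle. The summed level of the 15 markers was 22960 ± 1913 CPM (SD, n = 3) in WT against 14890 ± 594 CPM in Y428F cells with vehicle, and 22630 ± 1606 and 12560 ± 1436 CPM with PTH. These sums rest mostly on *Col1a2* and on *Col1a1*, another fibrillar collagen chain. With vehicle, *Col1a1* averaged 7049 (WT) against 5455 CPM (Y428F). The sums thus describe mainly collagen transcripts and not the 15 markers alike. Against this, *Thy1* had 0 counts in all 12 libraries, *Sp7*, an osteoblast transcription factor, had at most 4 counts and *Alpl*, alkaline phosphatase, at most 7. The cells therefore carried collagen and mesenchymal transcripts, while these 3 markers were at or near 0. *Lepr*, of the same list, was also low, with 1 to 5 counts per WT library and 9 to 21 per Y428F library. Of the 14 markers tested, 2 were higher (*Ly6a* and *Lepr*) and 10 lower in Y428F cells with vehicle, beside 22.4% higher and 22.7% lower among all genes tested. *Ly6a* was at 324 ± 1.42 CPM in Y428F against 138 ± 10.7 CPM in WT cells with vehicle, so the markers did not all go the same way. In bulk RNA, fewer cells that express a gene and less RNA per cell cannot be told apart.

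*Wnt10b* and *Wnt5a* were the most abundant WNT ligand mRNAs in every group. Levels of different genes were compared as CPM per kilobase of annotated exon. With vehicle, *Wnt10b* was at 9.10 ± 0.385 CPM per kb in WT against 9.55 ± 0.309 in Y428F cells, and with PTH at 7.38 ± 0.157 and 7.58 ± 1.02. *Wnt5a* was at 5.33 ± 0.359 and 3.47 ± 0.0904 CPM per kb with vehicle, and at 4.90 ± 0.270 and 3.13 ± 0.211 with PTH. *Wnt4*, a ligand known from kidney and gonad development, ranked next in all groups, at 0.401 ± 0.0241 and 0.792 ± 0.114 CPM per kb with vehicle and 0.356 ± 0.131 and 1.11 ± 0.0837 with PTH. The order *Wnt10b*, *Wnt5a*, *Wnt4* was thus the same in the 4 groups, and the libraries of *Wnt10b* and *Wnt5a*, and of *Wnt5a* and *Wnt4*, did not overlap in any of them.

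**Figure D1:**
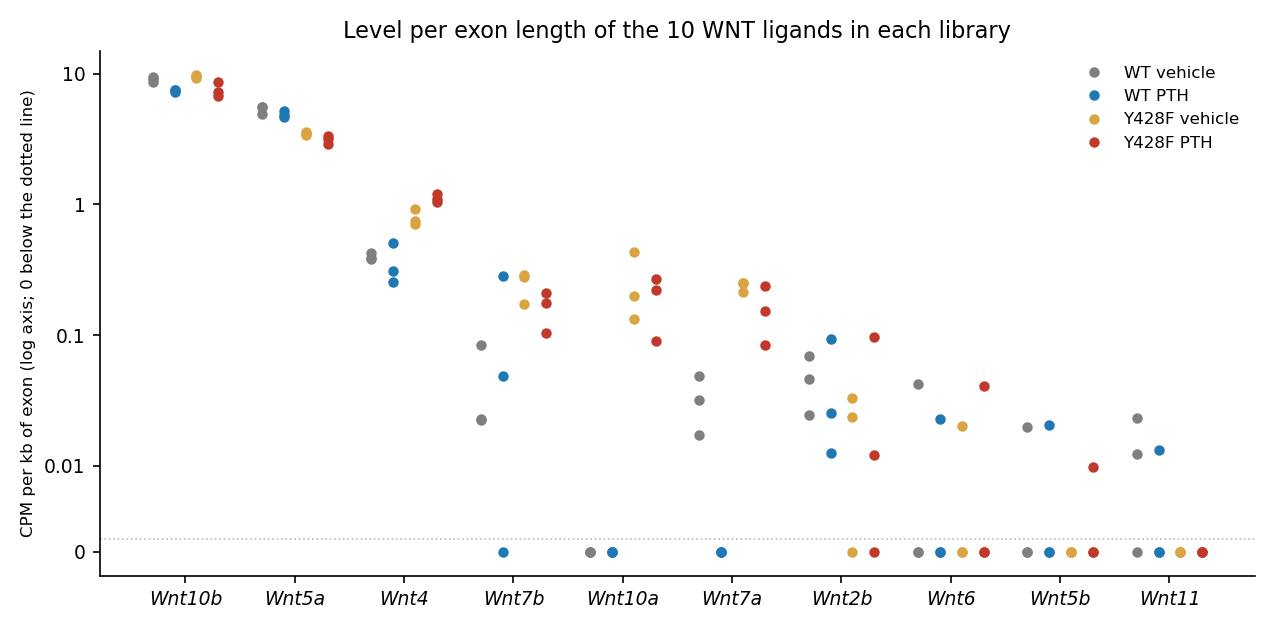
Level of the 10 WNT ligands in each of the 12 libraries, in CPM per kb of exon on a log axis, with libraries at 0 drawn below the dotted line. Each point is a library, colored by group. *Wnt10b* and *Wnt5a* lie at or above 2.90 CPM per kb in every library, and *Wnt10a* points above 0 are all from Y428F cells.

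Below *Wnt4* the order depended on the cells. In WT cells with vehicle the next were *Wnt2b*, *Wnt7b* and *Wnt7a*, at 0.0467, 0.0430 and 0.0328 CPM per kb, and their libraries overlapped. In WT cells with PTH, *Wnt7b* followed at 0.112 ± 0.153 CPM per kb, and its highest library, at 0.286, overlapped the lowest of *Wnt4*, at 0.254. In Y428F cells the 3 ligands after *Wnt4* were *Wnt10a*, *Wnt7b* and *Wnt7a*, at 0.254 ± 0.156, 0.246 ± 0.0639 and 0.238 ± 0.0197 CPM per kb with vehicle and 0.195 ± 0.0927, 0.164 ± 0.0543 and 0.158 ± 0.0762 with PTH. Their libraries overlapped in both treatments, so these 3 ligands could not be ranked. With vehicle, all 3 lay above *Wnt2b*, whose highest Y428F library was at 0.0328 CPM per kb, whereas with PTH the libraries of *Wnt7a* and *Wnt10a* overlapped those of *Wnt2b*.

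The composition of the ligand pool differed between the lines. Of the summed level of the 10 ligands, *Wnt10b* and *Wnt5a* together made up 96.3 ± 0.358% in WT against 89.3 ± 1.73% in Y428F cells with vehicle, and 95.9 ± 1.06% and 86.3 ± 3.09% with PTH. *Wnt4* made up 2.68 ± 0.232% and 5.43 ± 0.621% with vehicle, and 2.78 ± 1.04% and 9.05 ± 1.30% with PTH. The ratio of *Wnt10b* to *Wnt5a* per kb was 1.71 ± 0.142 in WT against 2.76 ± 0.0855 in Y428F cells with vehicle, and 1.51 ± 0.113 and 2.42 ± 0.283 with PTH. The highest WT library, at 1.86, was below the lowest Y428F library, at 2.20. The summed level itself was closer between the lines, at 15.0 ± 0.536 and 14.6 ± 0.465 CPM per kb with vehicle and 12.8 ± 0.158 and 12.4 ± 0.875 with PTH, and within each line no PTH library reached the lowest vehicle library. No test was run on these shares, which were computed from the levels above.

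*Wnt10b* (ENSMUSG00000022996.16) lies on the minus strand of chromosome 15, from 98668593 to 98690045 in GRCm39, and *Wnt5a* (ENSMUSG00000021994.16) on the plus strand of chromosome 14, from 28226495 to 28249405. The 250 bases before the start of their canonical transcripts are shown because these ligands were the most abundant and only *Wnt10b* passed the test for a PTH response. They are from the reference genome GRCm39, 5′ to 3′ on the gene's strand, and capitals mark a match to one of 3 motifs searched on both strands, TGACG (a core that CREB binds), GGAATG (the core that TEAD factors bind) and CTTTG (the core that TCF and LEF factors bind).
Wnt10b, chr15:98676450-98676699, minus strand: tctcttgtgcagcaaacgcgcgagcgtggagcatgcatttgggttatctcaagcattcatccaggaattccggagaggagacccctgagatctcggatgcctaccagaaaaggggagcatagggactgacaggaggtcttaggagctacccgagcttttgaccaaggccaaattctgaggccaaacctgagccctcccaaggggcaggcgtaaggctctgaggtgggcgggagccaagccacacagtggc
Wnt5a, chr14:28226245-28226494, plus strand: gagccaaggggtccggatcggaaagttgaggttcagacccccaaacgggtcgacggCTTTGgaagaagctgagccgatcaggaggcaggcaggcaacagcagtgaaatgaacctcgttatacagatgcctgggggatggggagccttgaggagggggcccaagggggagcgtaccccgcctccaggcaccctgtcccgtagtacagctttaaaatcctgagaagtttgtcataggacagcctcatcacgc
The *Wnt10b* window held none of the 3 motifs, and it lies within the annotated span of *Wnt10b*, which extends to 98690045. The *Wnt5a* window held CTTTG once, beginning 194 bases before the start. Among windows of the same length before 21721 genes, TGACG was found in 18.1%, GGAATG in 12.1% and CTTTG in 49.3%. Of the other 8 ligands, *Wnt5b* and *Wnt7b* held CTTTG and *Wnt11* held TGACG. A match is a description of the letters, and binding was not measured here.

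PTH lowered *Wnt10b* in both lines. In WT cells its levels were 44.3, 48.2 and 46.5 CPM with vehicle and 36.6, 38.1 and 37.9 CPM with PTH. Every PTH library was below every vehicle library, and the PTH libraries lay closer together. The log2 fold change was -0.30 (SE, standard error, 0.073, 95% interval -0.45 to -0.14, adjusted p = 0.0179 in the quasi-likelihood test of edgeR, adjusted over all genes tested), a change of -18.6%. In Y428F cells the levels were 47.0, 48.7 and 50.1 CPM with vehicle and 34.3, 37.2 and 44.3 CPM with PTH. The groups again did not overlap, but PTH library 3 was closer to the vehicle libraries than the other 2 were. The log2 fold change was -0.33 (SE 0.079, 95% interval -0.50 to -0.17, adjusted p = 0.0075), a change of -20.6%. The responses of the lines differed by -0.03 on the log2 scale (95% interval -0.26 to 0.20, adjusted p = 0.993), so a difference in either direction larger than those bounds lay outside the interval. In WT cells, fitted on the 6 WT libraries, the call was lost without some of them. The adjusted p was 0.0961 without PTH library 1, 0.0582 without PTH library 2, and 0.0702 and 0.0636 without vehicle libraries 2 and 3, while the log2 fold change stayed between -0.31 and -0.26. In Y428F cells the adjusted p was 0.0475 or lower whichever of the 12 libraries was left out, but that fit drew its spread from all 4 groups, so the lines cannot be ranked by this. Fitted on all 12 libraries too, *Wnt10b* in WT cells was called as well. An exon of *Wnt10b* overlaps an exon of *Wnt1* on the opposite strand by 489 bases, but *Wnt1* had at most 4 counts in any library.

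**Figure D2:**
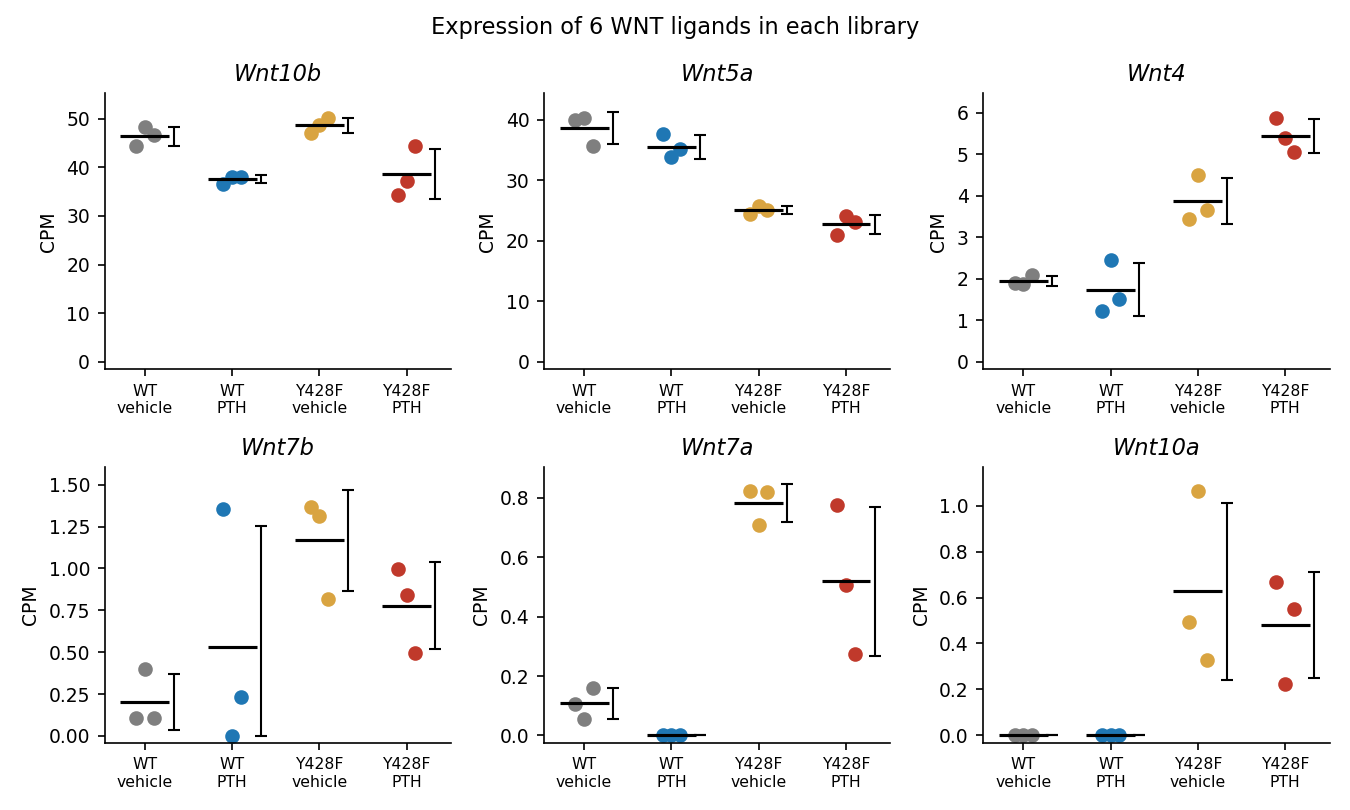
Expression of 6 WNT ligands in CPM in each library of the 4 groups, with a linear axis from 0. Points are libraries, horizontal lines are means and bars are the mean ± SD (n = 3), cut at 0. The PTH libraries of *Wnt10b* lie below the vehicle libraries in both lines, and the Y428F libraries of *Wnt4*, *Wnt7a* and *Wnt10a* lie above the WT libraries.

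*Wnt10b* was the only ligand that passed the test for PTH in either line, and it was lower. In WT cells 5 of the 10 ligands had enough counts to be tested, and 0 were called higher and 1 lower, beside 11.8% of all 15583 genes called in either direction (6.88% higher, 4.91% lower). In Y428F cells 7 were tested, and 0 were called higher and 1 lower, beside 12.4% of 17691 genes (6.61% higher, 5.78% lower). DESeq2's Wald test gave an adjusted p for 3 ligands in each line, of which 0 were higher and 1 was lower. At an unadjusted p under 0.05 the numbers in edgeR were 0 higher and 1 lower in WT cells, and 1 higher and 1 lower in Y428F cells. Over the 5 ligands tested in WT cells the median log2 fold change was -0.12 in WT and -0.15 in Y428F cells, against medians of -0.01 and -0.01 for all genes tested.

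*Wnt5a*, the second ligand by level, did not pass the test for PTH in either line. Its levels in WT cells were 40.0, 40.3 and 35.6 CPM with vehicle and 37.6, 33.8 and 35.1 CPM with PTH. The groups overlapped, and the log2 fold change was -0.12 (95% interval -0.29 to 0.06, adjusted p = 0.436 in edgeR). In Y428F cells the levels were 24.5, 25.8 and 25.0 CPM with vehicle and 21.0, 24.0 and 23.0 CPM with PTH. Here the groups did not overlap, although the log2 fold change of -0.15 was within its error (95% interval -0.31 to 0.02, adjusted p = 0.29 in edgeR).

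*Wnt4* had lower levels, and its PTH and vehicle libraries overlapped in WT but not in Y428F cells. In WT cells it was at 1.90, 1.88 and 2.09 CPM with vehicle and 1.24, 2.46 and 1.51 CPM with PTH. The second PTH library was the highest of the 6 and the first the lowest, and the log2 fold change was -0.17 (95% interval -0.81 to 0.47, adjusted p = 0.792 in edgeR). In Y428F cells it was at 3.45, 4.50 and 3.66 CPM with vehicle and 5.88, 5.39 and 5.07 CPM with PTH. The PTH libraries all exceeded the vehicle libraries, but the log2 fold change of 0.49 (SE 0.19) did not pass the limit after adjustment over all genes (adjusted p = 0.112 in edgeR). The difference between the responses of the lines was 0.67 on the log2 scale (95% interval 0.02 to 1.31), with an adjusted p of 0.685 in edgeR.

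No ligand passed the test of a difference in PTH response between the lines. Of the 7 tested, 0 were called, beside 0.413% of all genes tested (0.17% higher, 0.243% lower), and DESeq2 called 0 of the 3 for which it gave an adjusted p. The 7 include *Wnt10a*, which had 0 counts in every WT library, so its difference could not be estimated and it could not be called. At an unadjusted p under 0.05 there were 2 in edgeR, *Wnt4* (adjusted p = 0.685) and *Wnt7a* (adjusted p = 0.65). For *Wnt7a* all 3 WT libraries with PTH had 0 counts and those with vehicle had 1 to 3, which are at or under the floor of 3 counts, so no fold is given for WT cells. The shallow ligands set little limit on such a difference. For *Wnt7b* its 95% interval ran from -4.16 to 0.23 on the log2 scale, against -0.26 to 0.21 for *Wnt5a*.

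**Figure D3:**
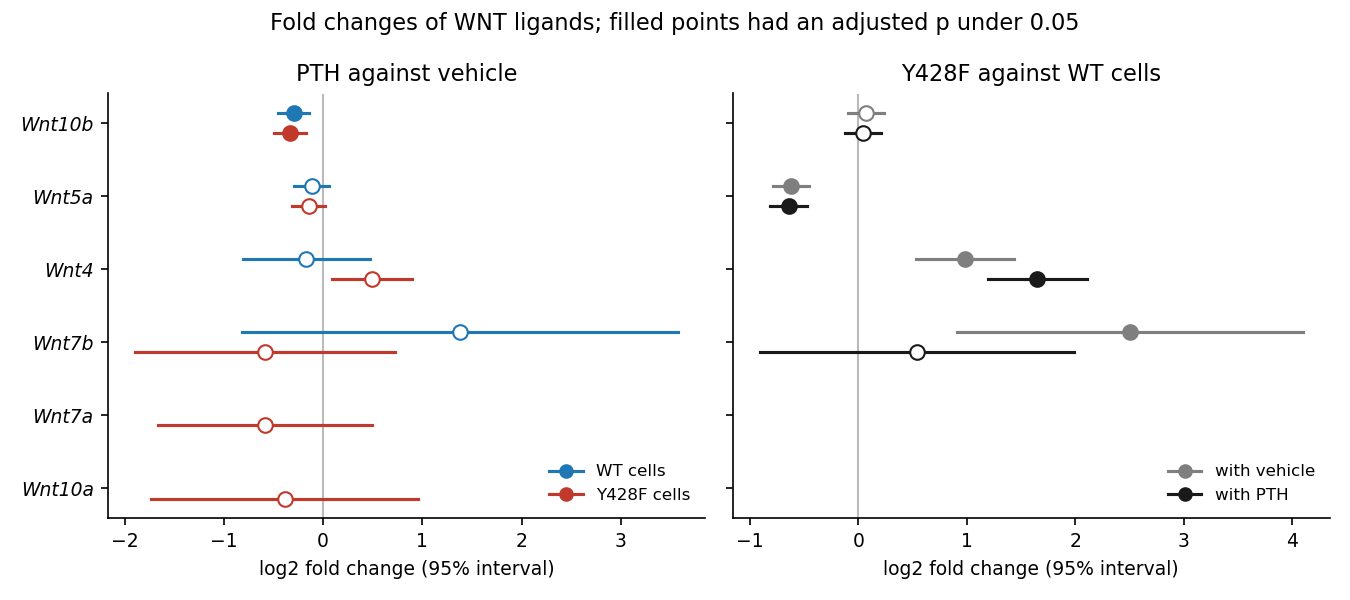
Log2 fold changes with 95% intervals of 6 WNT ligands for PTH against vehicle in each line (left) and for Y428F against WT cells in each treatment (right). Filled points had an adjusted p under 0.05 in edgeR, and comparisons not tested or with a group whose libraries had at most 3 counts each are not drawn, which leaves out *Wnt7a* and *Wnt10a* between the lines. Only *Wnt10b* is filled on the left, whereas on the right it is the ligand closest to 0.

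Between the lines, 5 ligands passed the test with vehicle and 4 with PTH. With vehicle, 4 of the 7 ligands tested were higher in Y428F cells (*Wnt4*, *Wnt7a*, *Wnt7b* and *Wnt10a*) and 1 was lower (*Wnt5a*), beside 45.1% of all genes tested (22.4% higher, 22.7% lower). With PTH, 3 were higher (*Wnt4*, *Wnt7a* and *Wnt10a*) and 1 was lower (*Wnt5a*), beside 45.7% of all genes (22.8% higher, 23% lower). *Wnt7a* and *Wnt10a* passed the filter on low counts through the Y428F libraries alone, so they had to be higher there, and their calls are no support for a difference. Among the 5 ligands that also passed it in the WT libraries, 2 were higher (*Wnt4* and *Wnt7b*) and 1 was lower with vehicle, and 1 was higher (*Wnt4*) and 1 lower with PTH. Their median log2 fold change was 0.07 with vehicle and 0.04 with PTH, against 0.01 and 0.02 for all genes tested. With so few ligands and so large a background, the counts say nothing particular to WNT ligands.

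*Wnt10b* was the exception among the 3 most abundant ligands. With the CPM given above, its log2 fold change between the lines was 0.07 with vehicle (95% interval -0.09 to 0.23, adjusted p = 0.508 in edgeR) and 0.04 with PTH (95% interval -0.13 to 0.21, adjusted p = 0.721). The libraries of the lines overlapped in both treatments. *Wnt10b* lies on chromosome 15, on which the median of 434 expressed genes was 0.20 with vehicle.

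*Wnt5a* was lower in Y428F cells in both treatments, at 25.1 ± 0.655 against 38.6 ± 2.60 CPM with vehicle and 22.7 ± 1.53 against 35.5 ± 1.96 CPM with PTH. No Y428F library reached a WT library, the closest being 25.8 CPM with vehicle in Y428F and 33.8 CPM with PTH in WT cells. The log2 fold changes were -0.62 (SE 0.078, adjusted p = 1.19e-06 in edgeR) and -0.65 (SE 0.080, adjusted p = 9.29e-07). The 354 expressed genes of its chromosome 14 had a median of 0.03 with vehicle.

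*Wnt4* (ENSMUSG00000036856.5, chromosome 4, from 137004373 to 137027037) was higher in Y428F cells, at 3.87 ± 0.555 against 1.96 ± 0.118 CPM with vehicle and 5.45 ± 0.409 against 1.74 ± 0.641 CPM with PTH. The lowest Y428F library, at 3.45 CPM, was above the highest WT library, at 2.46 CPM. The log2 fold changes were 0.98 (SE 0.22, adjusted p = 0.000768 in edgeR) and 1.65 (SE 0.22, adjusted p = 2.16e-06). They kept their sign and their call whichever library was left out, lying between 0.86 and 1.05 for vehicle-treated cells and between 1.47 and 1.99 for PTH-treated cells. The 650 expressed genes of chromosome 4 had a median of -0.06 with vehicle.

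*Wnt7a* (ENSMUSG00000030093.8, chromosome 6, from 91340959 to 91388460) and *Wnt7b* (ENSMUSG00000022382.16, chromosome 15, from 85419638 to 85466674) are close relatives known from limb, nervous system and vascular development. For *Wnt7a* the rounded counts were 2, 1 and 3 in WT and 15, 14 and 15 in Y428F cells with vehicle, and 0, 0 and 0 in WT and 14, 9 and 5 in Y428F cells with PTH. No WT library reached a Y428F library in either treatment. The WT libraries with vehicle were at or under the floor of 3 counts, so no fold is given there, and with PTH the Y428F level was at least 2.91-fold higher than that floor. With 6 counts in all WT libraries together, *Wnt7a* was tested because of its Y428F counts, so its values are given as a description. The absolute level stayed low, at 0.783 ± 0.0650 CPM in Y428F cells with vehicle.

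The counts of *Wnt7b* were 2, 7 and 2 in WT and 25, 26 and 15 in Y428F cells with vehicle, and 23, 0 and 4 in WT and 18, 15 and 9 in Y428F cells with PTH. With vehicle the lines did not overlap, and the log2 fold change was 2.50 (SE 0.76, adjusted p = 0.0105 in edgeR), beside the median of 0.20 for 434 expressed genes of chromosome 15. With PTH the first WT library, with 23 counts, lay above all 3 Y428F libraries, and the log2 fold change was 0.54 (95% interval -0.91 to 1.99, adjusted p = 0.564). Without that library it was 2.65 (adjusted p = 0.0121). The difference between the lines with PTH thus turned on 1 library.

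*Wnt10a* (ENSMUSG00000026167.15, chromosome 1, from 74830675 to 74844355), the closest relative of *Wnt10b*, had 0 counts in all 6 WT libraries. In Y428F cells it had 9, 21 and 6 counts with vehicle and 12, 4 and 10 with PTH. Every Y428F library thus held counts of a gene that no WT library showed. Against the floor of 3 counts per library the level was at least 3.84-fold higher with vehicle and at least 2.69-fold higher with PTH, which is likewise a description. The vehicle limit leans on the library with 21 counts, at 1.06 CPM, while the lowest vehicle library was at 0.328 CPM. A count of 0 allowed up to 0.159 to 0.185 CPM in the WT libraries, for counting error alone, against 0.225 CPM in the lowest Y428F library. *Wnt6* ends 5699 bases before *Wnt10a* on the same strand, and it had 0 to 2 counts in all 12 libraries.

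PTH left the 3 shallow ligands of Y428F cells within their error. The log2 fold changes were -0.59 for *Wnt7a* (95% interval -1.66 to 0.49), -0.58 for *Wnt7b* (-1.89 to 0.73) and -0.39 for *Wnt10a* (-1.73 to 0.96). All 3 intervals include 0 and are wider than that of *Wnt10b*, so a response of the size seen for *Wnt10b* was not detectable at this depth.

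The remaining ligands were barely detected. *Wnt2b* (ENSMUSG00000027840.6, chromosome 3, from 104851289 to 104869237), a ligand that signals through beta-catenin, had 1 to 7 counts per WT library and 0 to 8 per Y428F library, and no comparison called it. *Wnt5b* (ENSMUSG00000030170.15, chromosome 6, from 119409323 to 119521897), the closest relative of *Wnt5a*, had 5 counts in all 12 libraries together. *Wnt6* (ENSMUSG00000033227.8, chromosome 1, from 74810922 to 74824975) had 6, and *Wnt11* (ENSMUSG00000015957.13, chromosome 7, from 98484319 to 98504402) had 4. The counts of *Wnt11* were all in WT cells. These 3 ligands had too few counts to be tested. An exon of *Wnt5b* overlaps 1244 bases of *Fbxl14*, which had 622 to 760 counts per library, on the opposite strand, and the strand setting of the counting is not given in the sources used here. *Wnt7b*, *Wnt7a*, *Wnt2b* and *Wnt11* also overlap exons on the opposite strand, of *AU022754* (236 bases, at most 1 count in any library), of *Gm67799* and *Gm67851* (35 and 205 bases), of *Gm65748* (230 bases) and of *Gm8398* (364 bases, 0 counts). Of the other 9 WNT ligand genes of the annotation, *Wnt3*, *Wnt3a*, *Wnt8a*, *Wnt9b* and *Wnt16* had 0 counts in all 12 libraries, *Wnt2* and *Wnt9a* had at most 1, *Wnt8b* at most 3 and *Wnt1* at most 4. Only 2 of these 9 could be tested, and 0 were called in any comparison by edgeR, by DESeq2 where it gave an adjusted p, or at an unadjusted p under 0.05 in edgeR.

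The machinery that acylates and exports WNT ligands was expressed in all libraries. *Porcn*, the acyltransferase of WNT proteins, had 89 to 138 counts per library, and *Wls*, the carrier that takes WNTs to the cell surface, 6984 to 11573. With PTH, 2 of 8 genes were higher and 0 lower in WT cells, *Tmed5* (0.30 on the log2 scale), which helps WNT leave the endoplasmic reticulum, and *Vps26a* (0.27), a subunit of the retromer that recycles WLS. In Y428F cells 5 were higher and 0 lower, *Tmed5* (0.46), *Vps26a* (0.32), *Vps35* (0.26), *Vps29* (0.24) and *Snx3* (0.16), the last 3 also of the retromer pathway. DESeq2 called 3 higher in WT and 6 in Y428F cells, and 0 lower in either. Among all genes tested by edgeR, 6.88% were higher in WT and 6.61% in Y428F cells. The difference in response was called for 0 of the 8 genes by edgeR and by DESeq2, and for 0 at an unadjusted p under 0.05, so a response in only 1 line was not shown. *Wls* was lower in Y428F cells, at 386.5 ± 4.47 against 580.5 ± 21.2 CPM with vehicle (log2 fold change -0.59, adjusted p = 1.43e-08 in edgeR) and with a log2 fold change of -0.61 with PTH. *Tmed5* and *Snx3* were higher in Y428F cells in both treatments, and *Vps29* with PTH. Between the lines 45.1% of all genes tested were called with vehicle and 45.7% with PTH, so nothing particular to the machinery is read from these calls.

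Of 16 receptor genes 12 were tested. With PTH, *Fzd7* was higher (0.43 on the log2 scale) and *Fzd2* lower (-0.25) in WT cells. In Y428F cells *Fzd7* was higher (0.26) and *Fzd2* (-0.28), *Ptk7* (-0.27) and *Fzd8* (-0.27) were lower. Among all genes tested 11.8% were called with PTH in WT and 12.4% in Y428F cells. The difference in response was called for 0 of the 12 receptors by edgeR and by DESeq2. At an unadjusted p under 0.05 in edgeR there was 1, so a response in only 1 line was not shown. Between the lines with vehicle 2 were higher in Y428F cells, *Fzd1* (1.12) and *Fzd4* (0.80), and 5 lower, the beta-catenin coreceptor *Lrp5* (-3.07), *Fzd5* (-1.38), *Fzd8* (-1.33), *Ptk7* (-0.91) and *Ryk* (-0.79). Among all genes tested 45.1% were called (22.4% higher, 22.7% lower), so nothing particular to the receptors is read from these counts. With PTH the same 7 differed in the same directions, and *Fzd7* (-0.25) was also lower, beside 45.7% of all genes. *Ror2*, a receptor of WNT5A, had 0 counts in all 12 libraries, while *Ror1* had 19 to 35 counts and *Ryk* 2545 to 4687. *Lrp6* had 2271 to 3352 counts per library.

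Among the extracellular modulators and feedback targets, *Rspo2* was the only gene called with PTH. Of the 12 secreted antagonists, PTH changed 0 of 5 tested in WT and 0 of 6 tested in Y428F cells in edgeR, DESeq2 called 0 of the 3 it gave an adjusted p in each, and at an unadjusted p under 0.05 there were 0 and 1. Among all genes tested 11.8% and 12.4% were called, so nothing particular to the antagonists is read from these counts. Between the lines *Sfrp2*, which binds WNTs outside the cell, was lower in Y428F cells in both treatments, and with PTH *Frzb* too (log2 fold change -1.11, adjusted p = 0.0184 in edgeR). *Wif1*, with at most 5 counts in any library, passed the filter on low counts through the WT libraries alone, so its call as lower is no support for a difference. With it, edgeR called 2 of 6 lower with vehicle and 3 with PTH, and DESeq2 2 and 2, beside 22.7% and 23% lower among all genes tested. *Trabd2b*, a protease that inactivates WNTs, was lower in Y428F cells (-0.96 with vehicle, -0.87 with PTH). *Rspo2*, which raises WNT receptor levels at the cell surface, rose with PTH in both lines (0.77 in WT, 0.34 in Y428F cells), from 43.3 ± 1.07 to 73.4 ± 1.96 CPM in WT and from 15.7 ± 1.78 to 19.8 ± 0.120 CPM in Y428F cells. The difference between these responses was -0.42 on the log2 scale (adjusted p = 0.129 in edgeR), and DESeq2's Wald test called it lower in Y428F cells. Of 10 feedback targets of beta-catenin, *Axin2*, *Nkd1*, *Nkd2* and *Sp5* had at most 2 counts in any library, and 6 were tested. PTH changed 0 of the 6 in either line in edgeR, DESeq2 called 0 of 4 in WT and 0 of 5 in Y428F cells, and at an unadjusted p under 0.05 there were 1 in WT against 0 in Y428F cells. Beside the same 11.8% and 12.4% of all genes, nothing particular to the feedback targets is read from these counts. Between the lines with vehicle, *Tnfrsf19* (2.05) and *Znrf3* (0.55) were higher and *Lef1* lower (-3.44) in Y428F cells, beside 45.1% of all genes called.

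**Figure D4:**
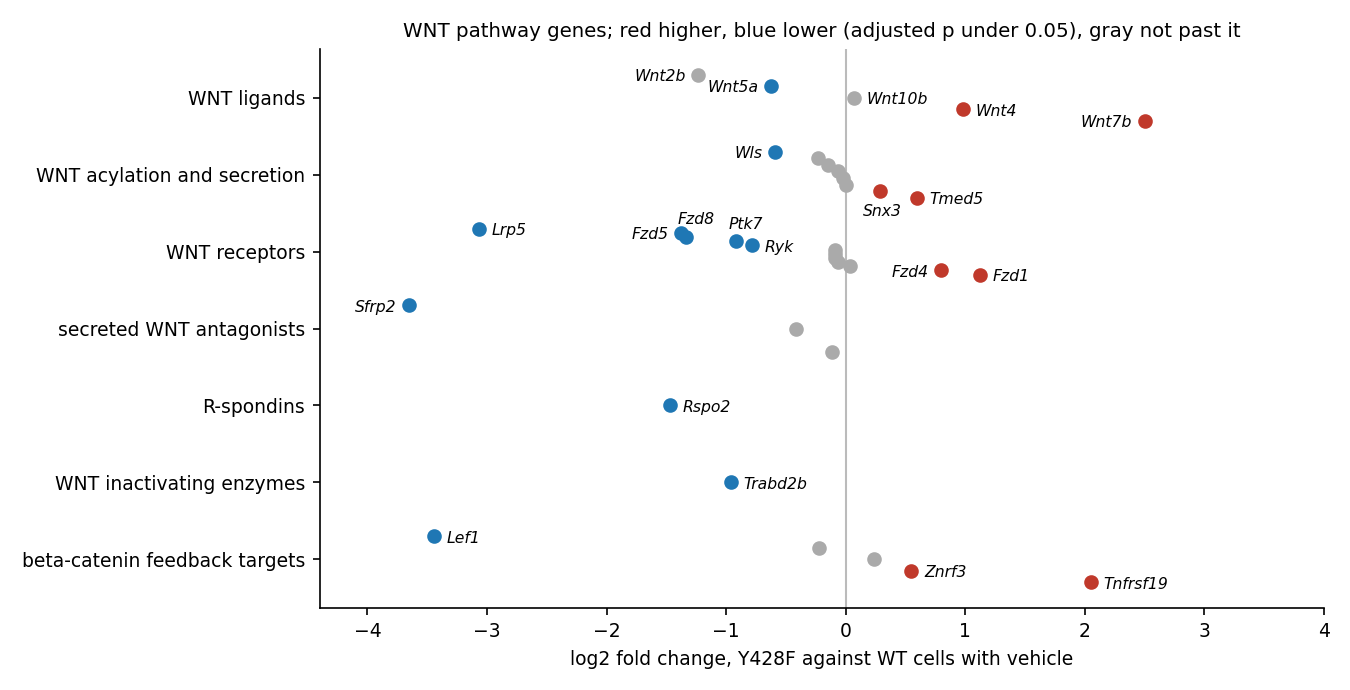
Log2 fold change of Y428F against WT cells with vehicle for the tested WNT ligands and for tested genes of 6 other WNT lists that averaged at least 1 CPM in these libraries. Each point is a gene, red where higher, blue where lower and gray where the adjusted p in edgeR was not under 0.05, and *Wnt7a* and *Wnt10a*, with at most 3 counts in each WT library, are not drawn. Among ligands both colors appear, and the points farthest to the left are *Sfrp2*, *Lef1* and *Lrp5*.

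Markers of other cell types were measured beside the ligands because *Wnt7a*, *Wnt7b* and *Wnt10a* are also expressed outside stroma. With vehicle 22.4% of all genes tested were higher and 22.7% lower in Y428F cells, against which the counts of markers below stand. The 5 blood cell markers summed to 1.67 ± 0.114 CPM in WT against 3.56 ± 0.438 CPM in Y428F cells with vehicle, and 1 of the 4 tested was higher, *Ptprc* (1.70 on the log2 scale), the most abundant. The others did not pass the test, *Cd68* at 0.82, *Csf1r* at -0.98 and *Itgam* at -2.61 with vehicle, and the rise of the sum rests on *Ptprc*. *Itgam*, with at most 4 counts in any library, passed the filter on low counts through the WT libraries alone. The 4 endothelial markers summed to 1.42 ± 0.453 and 8.91 ± 1.00 CPM, and 1 of 4 was higher, *Cdh5* (3.28), the most abundant. *Tek* (0.20) did not pass the test, and the rise of the sum rests on *Cdh5*. *Pecam1* (at most 6 counts) and *Kdr* (at most 5 counts, and 0 in every WT library) did not pass it either. Both passed the filter on low counts through the Y428F libraries alone, so no fold is given for them. The 4 epithelial markers summed to 0.624 ± 0.307 and 3.68 ± 0.799 CPM, and both genes tested were higher, *Krt8* (2.48), the most abundant, and *Cdh1*, whereas *Epcam* had 0 counts in all 12 libraries. *Cdh1* had 1 to 3 counts per WT library, at or under the floor of 3 counts, so no fold is given. With PTH it did not pass the test (adjusted p = 0.0787 in edgeR). *Krt18* had at most 4 counts in any library, and the rise of the sum rests mostly on *Krt8*. With PTH the sums in WT and Y428F cells were 1.48 ± 0.749 and 4.33 ± 0.257 CPM for blood cell, 1.05 ± 0.111 and 6.44 ± 0.328 CPM for endothelial and 0.512 ± 0.260 and 4.41 ± 0.376 CPM for epithelial markers. Of the 5 adipocyte markers, *Pparg* was higher (0.33) and *Fabp4* lower (-2.03) in Y428F cells with vehicle, and *Adipoq* had 0 counts. Thus *Ptprc*, *Cdh5*, *Krt8* and *Pparg* were higher in Y428F cells with vehicle, as *Wnt7b* was, and *Fabp4* was lower. *Cdh1* was called higher too, but against WT libraries at or under the floor. *Wnt7a* and *Wnt10a* are left out here because they passed the filter through the Y428F libraries alone. Their part in the ligand differences was not tested.

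PTH signals through its receptor gene *Pth1r*, which had 0 to 10 counts per library and was not called in any comparison. The 5 genes whose levels followed *Wnt10b* most closely over the 12 libraries were *Plekhg3* (Pearson's r of log2 CPM 0.97), *Gm36033* (0.938), *Tcf3* (0.927), *Zfp385a* (0.917) and *Xndc1* (0.911), out of 10178 genes averaging at least 5 CPM. The libraries fall into treatment groups, so these values describe a shared fall with PTH and little difference between the lines. *Plekhg3* had log2 fold changes of -0.28 in WT and -0.30 in Y428F cells with PTH and 0.04 between the lines with vehicle, and *Tcf3*, an E protein of the basic helix-loop-helix family, had -0.21, -0.28 and 0.07.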

How the data were processed

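The authors mapped reads with STAR 2.7.10b to the GRCm39 assembly with GENCODE's basic gene set and deposited RSEM expected counts per gene for 12 libraries, not scaled for library size or gene length. The strand setting is not given in the sources used here. Library totals ranged from 17127897 to 19057319 counts. Symbols, positions and exon lengths were taken from GRCm39 with GENCODE vM39 by stable identifier (56236 genes matched, 744 not).

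Counts were rounded and compared using edgeR 4.0.16 in R 4.3.3 (quasi-likelihood test, TMM factors, genes totalling at least 10 counts, Benjamini-Hochberg adjustment over all genes tested, called at an adjusted p under 0.05). The PTH response of WT cells was fitted on the 6 WT libraries (15583 genes), the other comparisons on all 12 (17691 genes). Standard errors were derived from the F statistic, and folds against a group with no counts used a floor of 3 counts per library. CPM used TMM factors of all 12 libraries. Replicates differed by more than counting noise. Intervals and floors of single libraries cover counting error only. The test was tried on simulated data, and no result of that trial is used here.

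All 10 ligands were named, with every library shown for those with a mean of at least 1 CPM in a group or a call. From the other lists, the 3 called genes with the largest changes and a mean of at least 1 CPM were named, and further called genes were named after their values were seen. The members and lists were chosen with earlier results of these data known. Alternatives were DESeq2 1.42.0 (Wald test, size factors), library totals, other filters and limits, a replicate block, the WT response on all 12 libraries, transcript length and each library left out. No protein sequences were used.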

Additional observations from a re-analysis of the deposited data

How the results depend on the processing

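The fold changes of *Wnt4* and *Wnt5a* between the lines kept their direction and their call under every alternative, as did *Wnt10b* with PTH in Y428F cells. *Wnt10a* was left out by the filter filterByExpr, and *Wnt7b* by the same filter in the WT fit. Under limits of 0.01 on the adjusted p and 0.3 on the log2 fold change, 0 ligands were lower with PTH in WT cells, since *Wnt10b* (-0.296, adjusted p = 0.0179 in edgeR) missed both, and *Wnt7b* between the lines with vehicle was no longer called (adjusted p = 0.0105). Without 1 library at a time this count of ligands lower with PTH in WT cells was 0 to 1, and the count of ligands higher in Y428F cells with PTH was 3 to 4. Uncalled log2 fold changes turned sign without 1 library. They ranged from -0.487 to 0.0344 for *Wnt4* and from -0.701 to 2.26 for *Wnt7b* with PTH in WT cells, and from -0.689 to 0.223 for *Wnt10a* with PTH in Y428F cells. Between the lines with PTH they ranged from -0.0828 to 0.108 for *Wnt10b* and from -0.0196 to 2.65 for *Wnt7b*. The difference in response ranged from -0.148 to 0.0428 for *Wnt10b*, from -0.0744 to 0.0364 for *Wnt5a* and from -2.84 to 0.143 for *Wnt7b*. With the length of the longest transcript in place of all exons, the ratio of *Wnt10b* to *Wnt5a* was 1.89 in WT against 3.04 in Y428F cells with vehicle, and 1.66 in WT cells with PTH.

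Same-numbered libraries did not deviate together (mean r 0.0064 over 18 pairs, from -0.11 to 0.185, and 10 of 36 comparisons had the own number as the best match), so the numbers were not used as pairs. With the replicate number as a block, 0 ligands were higher and 1 lower with PTH in each line, *Wnt10b* having an adjusted p of 0.029 in WT and 0.00311 in Y428F cells in edgeR, and the other counts of ligands were also as above.

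Library totals in place of TMM gave 744 genes higher and 1216 lower for PTH in WT (1072 and 765 with TMM), 888 and 1445 in Y428F cells (1170 and 1022), 4565 and 3552 between the lines with vehicle (3966 and 4020) and 4761 and 3538 with PTH (4026 and 4067). The WT response to PTH fitted on all 12 libraries gave 1312 and 1063 genes. The stricter limits gave 544 and 277 for PTH in WT and 535 and 407 in Y428F cells, and 6 and 16 for the difference in response (30 and 43), for which DESeq2's Wald test gave 52 and 72 and no filter 96 and 120. The depth of these libraries left ligands of under 30 counts with intervals that span several fold.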
